A study of Mus musculus with 2 samples.

Results

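B cells are a minority population of smooth muscle cells in the mouse aorta marked by Sncg and Timp4. They were chosen by a count rule on raw UMIs (unique molecular identifiers, 1 per captured RNA molecule): a mural cell was a B cell when its summed UMIs of Sncg, Timp4, Sparcl1 and Npy1r reached at least 3 and exceeded both its sum of Npnt, Mylk4 and Sost and its sum of Mdga2, Chrm2, Chrm3, Adamtsl1 and Cacna2d3. Mural cells, the contractile cells of the vessel wall, were those with at least 30 UMIs of Acta2, Tagln and Myh11 per 10000 and more of these than of the fibroblast genes Dcn, Lum and Pdgfra. The rule found 329 B cells among 3390 mural cells and 10116 kept cells. Of these, 275 came from the knock-in library and 54 from the wild-type library. Mural cells led by the Npnt sum are called A cells (2566 knock-in, 276 wild-type) and those led by the Mdga2 sum C cells (71 knock-in, 24 wild-type).

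The mice were MGP-KI, in which the gene of matrix Gla protein (MGP) is altered by knock-in, and wild-type. MGP is a secreted inhibitor of calcification that binds bone morphogenetic proteins (BMPs). All mice were 1 month old, both sexes were used, the adventitia had been dissected away, and the tissue was digested with Liberase before DAPI-positive dead cells were removed by flow cytometry. Total RNA went into 1 droplet library for each genotype, and batch 1 is the label of both. The sources used here do not give the change in the protein, how many animals a library pools, or the hour at which tissue was taken. With 1 library per genotype there is no test between genotypes, and the B and A cells of a library share that library. The values below are therefore levels and ratios, with exact 95% intervals that cover counting error only.

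The aortic media alternates smooth muscle cells with sheets of elastin, and its smooth muscle cells both contract and make that matrix. Smooth muscle cells are not all alike: those of muscular and resistance arteries carry more of the machinery for contraction on demand, while those of elastic arteries carry more of the genes for the elastic lamellae. Sncg encodes gamma-synuclein, Timp4 an inhibitor of matrix metalloproteinases, Sparcl1 a matricellular glycoprotein related to SPARC, and Npy1r a receptor for the vasoconstrictor neuropeptide Y. Pln encodes phospholamban, which restrains the calcium pump of the sarcoplasmic reticulum, and Notch3 is the Notch receptor characteristic of arterial smooth muscle.

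Library depth differed between genotypes. The knock-in library held 85831737 UMIs over all barcodes and the wild-type library 79626104. The median kept cell had 11820 UMIs in the knock-in and 20480 UMIs in the wild-type library. B cells had a median of 11204 UMIs and 3.88% mitochondrially encoded UMIs in the knock-in library, and 16766.5 UMIs and 2.95% in the wild-type library. A cells were slightly deeper than B cells in both libraries, at medians of 12467 and 18497.5 UMIs. Between the libraries 4 kept barcodes were shared, and none of them was a B cell. Cells with both Xist and Y-linked UMIs, which a doublet or free RNA can give, numbered 10 of 275 knock-in and 3 of 54 wild-type B cells.

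To show the sequence in front of 3 genes higher in B cells, promoter windows of 300 bases from RefSeq are printed 5′ to 3′. They run from 250 bases before to 50 after the start of the gene (GRCm38.p6). The genes are the rule gene Sncg, Pln, and Kcna5, which is not among the genes named below by rank. Its levels are described further on. The windows lie at chr14:34374620-34374919 (minus strand) for Sncg, chr10:53337436-53337735 (plus strand) for Pln and chr6:126535506-126535805 (minus strand) for Kcna5. Capitals mark TATAAA in Pln, 219 bases before the start, and, 164 bases before the start of Kcna5, the reverse complement of GTGGGAA, the core site of the Notch effector RBPJ.
Sncg: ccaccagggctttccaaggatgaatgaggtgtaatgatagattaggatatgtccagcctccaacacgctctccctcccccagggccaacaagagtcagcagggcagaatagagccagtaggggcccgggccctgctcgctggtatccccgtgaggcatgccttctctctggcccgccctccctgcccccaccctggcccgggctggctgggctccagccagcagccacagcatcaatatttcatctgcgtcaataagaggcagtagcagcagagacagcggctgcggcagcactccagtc
Pln: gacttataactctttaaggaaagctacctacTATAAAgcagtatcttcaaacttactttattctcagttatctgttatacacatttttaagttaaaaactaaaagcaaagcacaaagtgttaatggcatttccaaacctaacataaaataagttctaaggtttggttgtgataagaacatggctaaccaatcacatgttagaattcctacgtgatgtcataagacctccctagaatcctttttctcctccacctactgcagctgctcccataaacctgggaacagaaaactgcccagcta
Kcna5: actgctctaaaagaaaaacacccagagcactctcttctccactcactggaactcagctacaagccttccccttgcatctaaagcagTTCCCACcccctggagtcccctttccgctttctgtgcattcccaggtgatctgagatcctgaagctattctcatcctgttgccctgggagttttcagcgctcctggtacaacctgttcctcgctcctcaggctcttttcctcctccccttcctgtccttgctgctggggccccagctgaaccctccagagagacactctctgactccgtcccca
Both strands were searched for GTGGGAA, for TATAAA and for the CArG box, the site of serum response factor. Among all 32851 mouse windows in the same source, 6.38% held GTGGGAA, 13.6% held TATAAA and 1.63% held a CArG box. The Sncg window held none of these, nor did the Notch3 window, which is not printed. Among the 12 windows found for the named genes higher in B cells, 0 held GTGGGAA. Among the 172 windows found for genes at least 2-fold higher in B than in A cells of both libraries, 4.65% held GTGGGAA, 11.05% TATAAA and 3.49% a CArG box. A match is a description of the letters only.

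The 4 B genes, which chose the cells and so are given as a description, were at similar levels in both libraries. Sncg stood at 909 CPM (the gene's UMIs scaled to a common total per class) in B cells and 18.3 CPM in A cells of the knock-in library, and at 760 CPM in B cells and 28.9 CPM in A cells of the wild-type library. Timp4 stood at 201 CPM in B and 11.5 CPM in A cells of the knock-in library, and at 162 and 24.3 CPM in those of the wild-type library. Sparcl1 was the most abundant of the 4, with 1335 CPM in knock-in and 1125 CPM in wild-type B cells, and Npy1r had 224 and 225 CPM. In non-mural cells Sncg had 6.95 CPM in the knock-in and 1.91 CPM in the wild-type library, far below B cells of the same library. The smooth muscle genes of the mural rule were all present: Acta2 had 14903 CPM in knock-in and 15875 CPM in wild-type B cells, against 18455 and 20211 CPM in A cells and 216 and 118 CPM in non-mural cells.

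**Figure D1:**
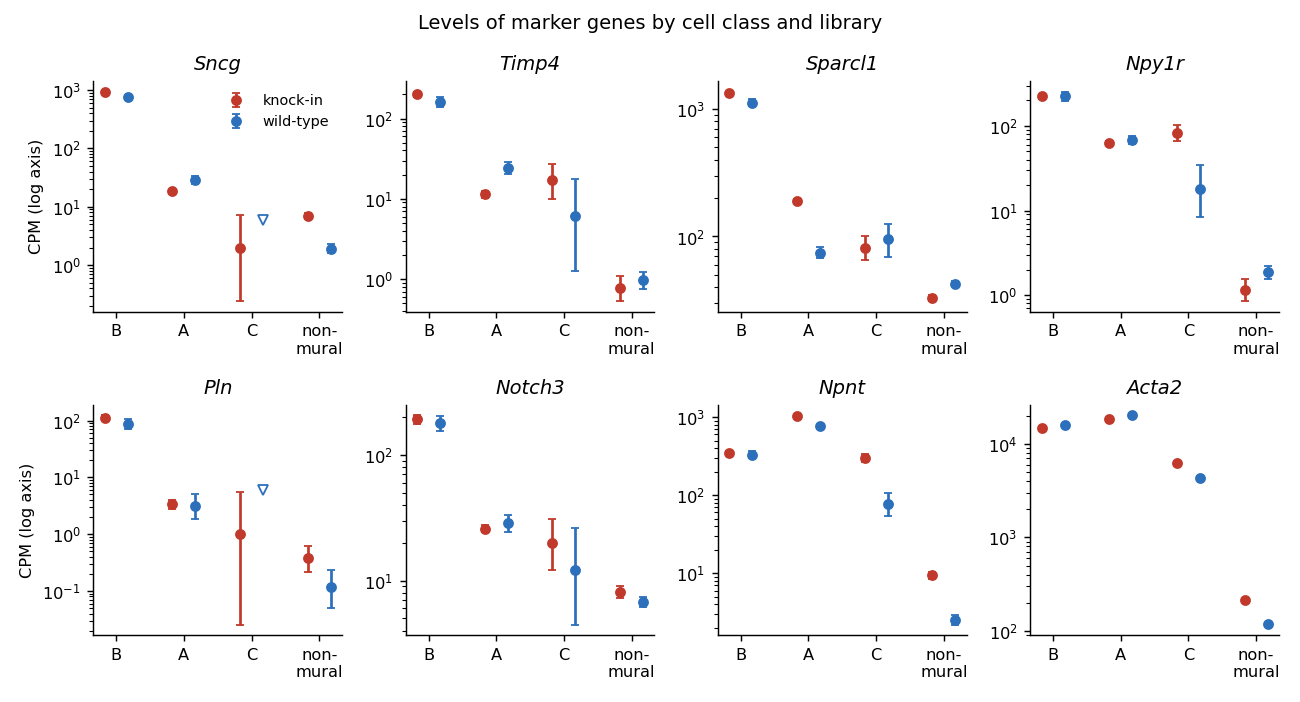
Levels in CPM (log axis) of 8 genes in B, A, C and non-mural cells, with the knock-in library left and the wild-type library right in each pair; bars are exact 95% counting intervals and open triangles mark the limit of 3 UMIs where the count was 0. Sncg reached 909 CPM in knock-in and 760 CPM in wild-type B cells, and Acta2 was near its A-cell level in B cells of both libraries.

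B cells were not equally marked. All 4 B genes were detected in 120 of 275 knock-in and 20 of 54 wild-type B cells, and only 1 of them in 27 knock-in and 8 wild-type cells. The summed B count had a median of 27 UMIs (range 3 to 131) in knock-in and 37.5 UMIs (range 3 to 252) in wild-type B cells. It was at least 2 times both other sums in 208 knock-in and 39 wild-type cells. At the edge of the rule, 32 knock-in and 4 wild-type B cells exceeded their A sum by only 1 or 2 UMIs. Just outside it, 33 knock-in and 6 wild-type mural cells with a B sum of at least 3 equalled their A sum or were 1 or 2 UMIs below it. In the knock-in library Sncg was at 144 CPM just inside and 194 CPM just outside this edge, Notch3 at 82.1 and 45.1 CPM, and Pln at 25.5 and 7.12 CPM. In the wild-type library, with 4 cells inside and 6 outside, Sncg had 11 UMIs inside and 2 UMIs outside, Notch3 1 and 6 UMIs, Pln 0 and 8 UMIs, and Timp4 0 and 6 UMIs.

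**Figure D2:**
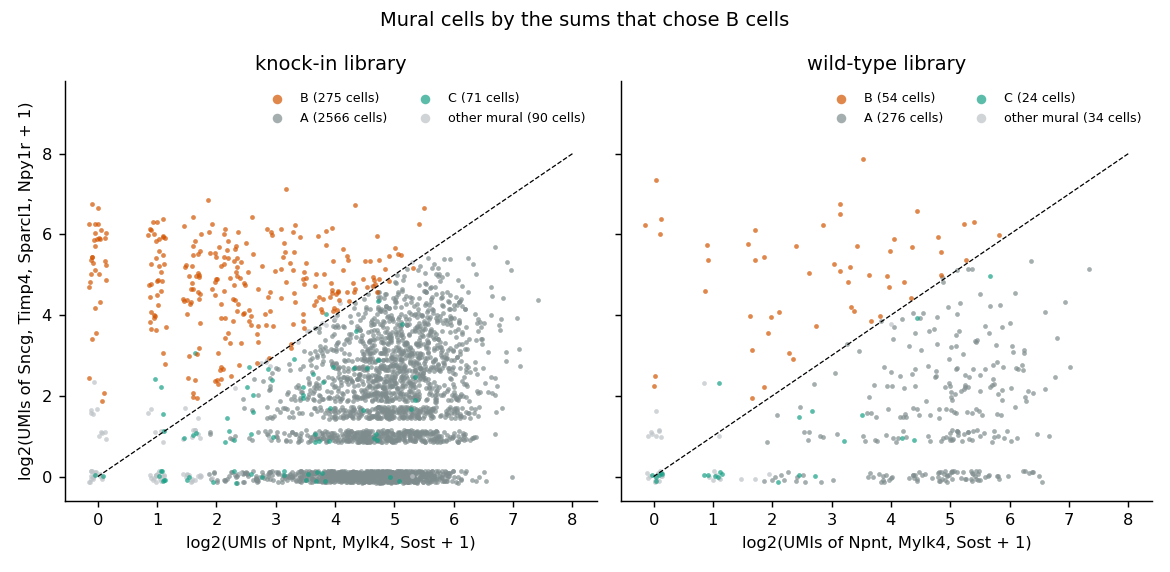
Every mural cell by its A sum (x, log2 of UMIs + 1) and B sum (y, log2 of UMIs + 1), jittered, with the knock-in library left and the wild-type library right; the dashed line marks equal sums. The 275 knock-in and 54 wild-type B cells lie above the line and run down to it without a gap.

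Pln and Notch3 were no part of the rule, although they were proposed as markers with these data in view. Pln had 113 CPM in B and 3.35 CPM in A cells of the knock-in library, which is 5.07 on the log2 scale (4.77 to 5.38). In the wild-type library it had 87.8 CPM in B and 3.17 CPM in A cells, a log2 ratio of 4.76 (4.05 to 5.61). Its level in C cells was 1 UMI in the knock-in library and 0 in the wild-type library. Notch3 had 192 CPM in B and 26.0 CPM in A cells of the knock-in library, and 178 and 28.5 CPM in those of the wild-type library, with log2 ratios of 2.89 and 2.64. Both genes were thus several times higher in the B cells of either library, and the counting intervals of the B and A levels did not overlap.

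Within the B cells, Pln was patchy and Notch3 broad. A Pln UMI was found in 30.2% of knock-in and 29.6% of wild-type B cells, against 3.23% and 3.99% of A cells and 0.351% and 0.242% of non-mural cells, which should lack it. A Notch3 UMI was found in 73.1% of knock-in and 74.1% of wild-type B cells, against 26.5% and 34.1% of A cells and 5.91% and 9.10% of non-mural cells. After each cell was thinned to 3000 UMIs, which left out 3 knock-in B cells, Pln was seen in 16.9% of knock-in and 20.4% of wild-type B cells and Notch3 in 40.1% and 40.7%. The thinned shares in A cells were 0.625% and 1.45% for Pln and 7.34% and 9.06% for Notch3. Median depths of non-mural cells were 11097 and 20732 UMIs.

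When all mural cells were clustered on genes outside the rule, most B cells fell together. At resolution 0.5, 1 of 11 clusters held 205 of 275 knock-in B cells (74.5%, 69.0 to 79.6) and 34 of 54 wild-type B cells (63.0%, 48.7 to 75.7). The same cluster held 51 of 2566 knock-in and 10 of 276 wild-type A cells and no C cell. Among the 14 nearest neighbours of a B cell, the mean share that were B cells was 67.3% in the knock-in and 56.5% in the wild-type library, against 1.44% and 3.23% for A cells. The B genes had not been used, but the cells share their other genes, so the grouping is a description. The other 70 knock-in and 20 wild-type B cells were spread over the remaining clusters and differed from the main ones. Their Pln level was 30.8 CPM in the knock-in and 16.6 CPM in the wild-type library, against 142 and 146 CPM in the main cluster. Dcn, a fibroblast proteoglycan gene that the mural rule uses, stood at 2233 CPM in these knock-in and 1431 CPM in these wild-type cells, against 44.5 and 35.7 CPM in the main cluster. List counts in the B cells of the main cluster are therefore given after those over all B cells. What part the scattered cells' fibroblast transcripts have in a result was not tested.

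At resolution 1.0 the main cluster divided into a larger group of 182 knock-in and 26 wild-type B cells and a smaller one of 23 and 8. The smaller group had more Pln, at 330 CPM in knock-in and 442 CPM in wild-type cells, against 116 and 63.2 CPM in the larger group. Igfbp5, which encodes a binding protein of insulin-like growth factors, ran the other way, at 25.7 CPM in the knock-in and 15.5 CPM in the wild-type cells of the smaller group, against 1133 and 1054 CPM in the larger one. Timp4 was at 57.8 and 101 CPM in the smaller and at 283 and 281 CPM in the larger group. Nrip2 had 1 UMI in the smaller group of each library. Notch3 was high in both groups, at 234 CPM in knock-in and 357 CPM in wild-type cells of the smaller and 232 and 244 CPM in those of the larger. The opposite levels of Pln and Igfbp5 were seen in both libraries, but these genes took part in the clustering and the smaller group has few cells.

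Beyond the rule's genes, 9176 genes had at least 50 UMIs over B and A cells in each library. Of these, 154 (1.68%) were at least 2-fold higher and 132 (1.44%) at least 2-fold lower in B than in A cells of both libraries, while the median gene had a log2 ratio of 0.03 in the knock-in and 0.02 in the wild-type library. Genes were named from those with at least 50 CPM by the counting bound nearest to no change. Nrip2, which encodes a nuclear receptor-interacting protein, came first, with 227 UMIs in B and 7 in A cells of the knock-in library and 65 in B and 3 in A cells of the wild-type library. Its log2 ratios were 8.27 (7.30 to 9.69) and 6.63 (5.23 to 9.16). Its UMIs came from 74 knock-in and 14 wild-type B cells.

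Among the other named genes higher in B cells, several encode parts of signalling and cell contact. Gja4, a connexin of gap junctions in the vessel wall, had 72.6 CPM in B and 5.20 CPM in A cells of the knock-in library, and 52.3 and 4.05 CPM in those of the wild-type library. Ntrk2, the receptor of brain-derived neurotrophic factor, had log2 ratios of 2.58 and 2.55, and Rasd1, a dexamethasone-induced Ras-related GTPase, of 3.16 and 4.25 in the knock-in and wild-type library. Synm, an intermediate filament protein that binds desmin, had 182 CPM in B and 30.5 CPM in A cells of the knock-in library, and 137 and 18.0 CPM in those of the wild-type library. Crip1, a LIM-domain protein, was the most abundant of the 14 described, at 9224 CPM in B and 1800 CPM in A cells of the knock-in library and at 5956 and 1352 CPM in those of the wild-type library. The remaining genes, Igfbp5, Thbs1, Ndufa4l2, Olfml2a, Ednra and Tmem176b, had log2 ratios between 2.30 and 5.93. In non-mural cells Igfbp5 had 863 CPM in the knock-in and 679 CPM in the wild-type library, against 818 and 579 CPM in B cells. Ndufa4l2 had 222 and 198 CPM in non-mural cells, against 59.4 and 109 CPM in B cells. In barcodes with at most 50 UMIs it had 123 and 187 CPM. Tmem176b had 91.0 and 74.9 CPM in non-mural cells, against 75.8 and 99.0 CPM in B cells. Thbs1 (thrombospondin 1, a matricellular protein that activates latent TGF-beta) differed most between the libraries, with log2 ratios of 5.93 in the knock-in and 2.70 in the wild-type library. The libraries differed in its A cells, at 3.55 CPM in knock-in and 26.1 CPM in wild-type A cells, while its B cells had 216 and 169 CPM. C cells had 18.9 CPM of it in the knock-in and 109 CPM in the wild-type library.

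The 10 named genes lower in B cells were Dsp, Kctd16, Casq1, Rgs7, Wif1, Bmpr1b, Mfap5, Emb, Clmp and Ccdc42. Dsp, the desmosomal protein desmoplakin, had 13.5 CPM in B and 169 CPM in A cells of the knock-in library, and 14.9 and 150 CPM in those of the wild-type library. Bmpr1b, a type I BMP receptor, had 52.7 CPM in B and 212 CPM in A cells of the knock-in library, and 28.0 and 199 CPM in those of the wild-type library. Casq1, the calcium buffer calsequestrin 1, had log2 ratios of -2.81 and -2.67, and Wif1, a secreted Wnt inhibitor, of -2.14 and -4.44. The wild-type value of Wif1 rests on 2 UMIs in B cells (interval -7.81 to -2.89), and 66.7% of the wild-type Casq1 UMIs in B cells came from 1 cell.

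**Figure D3:**
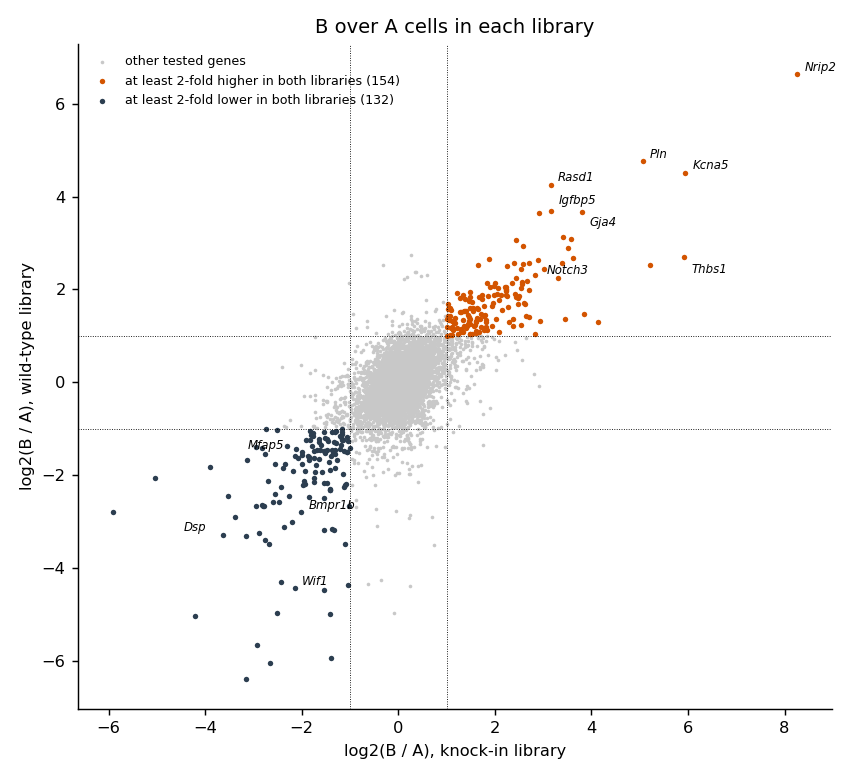
Log2 ratio of B over A cells in the knock-in library (x) and the wild-type library (y) for the 9176 tested genes; dotted lines mark 2-fold, and 12 genes are labelled. The 154 genes higher and 132 genes lower in both libraries lie in opposite corners, with Nrip2 at 8.27 and 6.63, Kcna5 at 5.95 and 4.50 and Pln at 5.07 and 4.76.

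Genes of the contractile apparatus were near the same level in B and A cells. Of 23 compared genes outside the rule, 1 was at least 2-fold higher in B cells of both libraries and 0 lower, against 1.68% and 1.44% of all genes compared. The list's median log2 ratio was -0.06 in the knock-in and -0.04 in the wild-type library. The gene past 2-fold was Des (desmin, an intermediate filament protein more abundant in muscular than in elastic arteries), with 156 CPM in B and 57.2 CPM in A cells of the knock-in library and 102 and 43.0 CPM in those of the wild-type library. Calponin (Cnn1) stood at 1024 CPM in B and 1517 CPM in A cells of the knock-in library and at 1234 and 1436 CPM in those of the wild-type library. Itga8, an integrin subunit of contractile smooth muscle, had log2 ratios of -0.81 and -0.75.

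Single channel and receptor genes differed more. Of 11 compared potassium channel genes, 2 were higher and 0 lower, against 1.68% and 1.44% of all genes compared. Kcna5, a voltage-gated channel that helps set the membrane potential of arterial smooth muscle, had 30.5 CPM in B and 0.483 CPM in A cells of the knock-in library, and 49.5 and 2.11 CPM in those of the wild-type library. Its log2 ratios were 5.95 and 4.50. Kcnk3, the background channel TASK-1, had 43.2 CPM in B and 4.03 CPM in A cells of the knock-in library, and 58.8 and 6.69 CPM in those of the wild-type library. The median log2 ratio over the list was 0.30 in the knock-in and 0.15 in the wild-type library.

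Of 22 calcium handling genes, 2 were higher (Pln and S100a4) and 1 lower, against 1.68% and 1.44% of all genes compared. The lower one was Cacna1d, an L-type calcium channel subunit, with 6.91 CPM in B and 40.3 CPM in A cells of the knock-in library, and 10.3 and 21.8 CPM in those of the wild-type library. Of 19 vasoactive receptor and cyclic GMP genes, 3 were higher and 3 lower. The higher ones were Ednra, the endothelin A receptor, P2rx1, an ATP-gated cation channel of sympathetic transmission, and Ptger3, a prostaglandin E2 receptor. P2rx1 had 88.5 CPM in B and 19.2 CPM in A cells of the knock-in library, and 122 and 29.6 CPM in those of the wild-type library. Ednra had 58.2 CPM in B and 5.51 CPM in A cells of the knock-in library, and 54.2 and 9.16 CPM in those of the wild-type library. C cells had as much of it, at 76.7 CPM in the knock-in and 56.4 CPM in the wild-type library. The lower ones were Npr1, the natriuretic peptide receptor that makes cyclic GMP, Npr3, its clearance counterpart, and Calcrl, the receptor of calcitonin gene-related peptide and adrenomedullin. Npr1 had 22.5 CPM in B and 99.8 CPM in A cells of the knock-in library, and 29.0 and 88.4 CPM in those of the wild-type library.

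Of 13 genes in the Notch pathway list, 4 were higher and 0 lower, against 1.68% and 1.44% of all genes compared. The list medians were 0.34 in the knock-in and 0.56 in the wild-type library. The higher ones were Notch3, itself proposed as a marker with these data in view, Notch1, the target Hes1, which encodes a repressor, and Epas1. Epas1 encodes a hypoxia-inducible factor and is not a core Notch component. Hes1 had 279 CPM in B and 113 CPM in A cells of the knock-in library, and 122 and 57.9 CPM in those of the wild-type library. Epas1 had 203 CPM in B and 43.1 CPM in A cells of the knock-in library, and 122 and 30.5 CPM in those of the wild-type library. The ligand Jag1 had log2 ratios of 1.65 and 0.99, just short of 2-fold in the wild-type library. The classic targets Hey2 (0.34 and 0.40) and Heyl (0.31 and 0.09) were nearer to parity. Of 16 transcription factor genes of mural and heart cells, Tbx2, Nr2f2 and Ebf2 were higher and Tbx18 was lower. Tbx2, a T-box repressor, had 38.0 CPM in B and 3.18 CPM in A cells of the knock-in library, and 36.4 and 4.23 CPM in those of the wild-type library.

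Elastic fibre genes had medians below 0 in both libraries. Of 14 compared elastic fibre genes, 0 were higher and 2 lower, against 1.68% and 1.44% of all genes compared. The 2 were the microfibril genes Mfap5 and Mfap4. The list medians were -0.39 in the knock-in and -0.29 in the wild-type library. Mfap5 had 288 CPM in B and 1038 CPM in A cells of the knock-in library, and 435 and 1384 CPM in those of the wild-type library. Eln, which encodes tropoelastin, had 5590 CPM in B and 8893 CPM in A cells of the knock-in library, and 11141 and 20345 CPM in those of the wild-type library, log2 ratios of -0.67 (-0.69 to -0.65) and -0.87 (-0.90 to -0.84). In the main cluster alone, 4 of 14 elastic fibre genes (Fbln1, Fbln5, Mfap4 and Mfap5) were at least 2-fold lower, against 3.95% of all genes compared there, and the medians were -0.68 and -1.18. There Mfap5 stood at 73.0 CPM in knock-in and 47.6 CPM in wild-type B cells, against 1050 and 1426 CPM in A cells. Only B cells were narrowed to that cluster, and non-mural cells had 1737 and 2684 CPM of Mfap5. Cells with 2 or more UMIs of endothelial or macrophage markers were also left out of both classes. In that setting 2 of 14 elastic fibre genes were lower, with medians of -0.34 in the knock-in and -0.33 in the wild-type library.

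Over all B cells, few other matrix and growth factor genes passed 2-fold. The counts in this paragraph stand against 1.68% higher and 1.44% lower of all genes compared. Of 13 interstitial collagen genes, 1 was higher (Col8a1, a short-chain collagen of vessels), and of 21 proteoglycan and matricellular genes, Thbs1 and Aspn were higher and Postn was lower. Postn (periostin) had 377 CPM in B and 1172 CPM in A cells of the knock-in library, and 607 and 1417 CPM in those of the wild-type library. In the insulin-like growth factor list 2 of 14 were higher, Igfbp5 and Igfbp4. Of 16 genes of BMP ligands and receptors, Bmp2 and Gdf10 were higher and Bmpr1b was lower, and of 8 compared BMP target genes none passed 2-fold in either direction. The targets Id1 and Id3 had log2 ratios of 0.36 and 0.73 in the knock-in and 0.80 and 0.46 in the wild-type library. Of 17 TGF-beta pathway genes, 1 was lower (Ltbp2), of 16 clock genes none passed, and of 10 Hox genes none passed. Over all B cells, none of the 22 genes of basement membrane and integrins passed.

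The remaining lists are given for all B cells, against 1.68% higher and 1.44% lower of all genes compared. Of 16 metalloproteinase and inhibitor genes, 1 was higher: Adamts4, an aggrecanase, had 45.8 CPM in B and 1.22 CPM in A cells of the knock-in library, and 34.6 and 5.99 CPM in those of the wild-type library. Of 13 genes of modulated smooth muscle, Lgals3 (galectin 3) was higher, and the medians of that list were 0.57 in the knock-in and 0.51 in the wild-type library. Of 23 genes of glycolysis and oxidative phosphorylation, Ndufa4l2, a mitochondrial protein induced by low oxygen, was higher, though below its level in non-mural cells. None passed in either direction among 8 chondro-osteogenic genes, 8 BMP antagonists and 6 relatives of the rule's own synuclein, SPARC and NPY receptor genes.

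Immediate early genes, which tissue dissociation can induce, had medians above that of all genes. Of 19, 3 were at least 2-fold higher (Junb, Zfp36 and Egr2) and 0 lower, against 1.68% and 1.44% of all genes compared. The list medians were 0.71 in the knock-in and 0.46 in the wild-type library, against 0.03 and 0.02 for all genes. Junb had 1730 CPM in B and 508 CPM in A cells of the knock-in library, and 1362 and 620 CPM in those of the wild-type library. In the main cluster 6 of 19 were higher, with Egr1, Atf3 and Nr4a1 beside these, and the medians were 0.93 and 0.67. Their part in the other differences was not tested.

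Restricting the comparison to the main cluster moved many of these list counts. Of 8880 genes compared, 196 (2.21%) were at least 2-fold higher and 351 (3.95%) at least 2-fold lower in its B cells than in A cells outside it, in both libraries. Since these genes took part in the clustering, the counts are a description. Only B cells were narrowed to 1 cluster, while A cells of every other cluster stayed in. Dcn stood at 436 CPM in knock-in and 457 CPM in wild-type A cells, against 44.5 and 35.7 CPM in main-cluster B cells. Cells with many fibroblast transcripts were thus left out of B cells only, and their part in the lower counts was not tested. Of 21 proteoglycan and matricellular genes, 3 were higher (Aspn, Thbs1 and Ccn3) and 7 lower (Fmod, Vcan, Thbs2, Ccn5, Postn, Sparc and Smoc2). Of 13 interstitial collagen genes, Col8a1 was higher and Col1a2, Col3a1 and Col14a1 were lower, and of 17 TGF-beta pathway genes Ltbp2, Ltbp3, Ltbp4 and Tgfbi were lower. Of 16 metalloproteinase and inhibitor genes, Adamts1, Adamts4, Adamts5 and Adamts15 were higher and Mmp2 was lower. In the insulin-like growth factor list Igf2r, Igfbp2, Igfbp4 and Igfbp5 were higher and Igf1 and Igfbp6 lower, of 14. Lama2 and Nid2 were lower among 21 basement membrane and integrin genes. Of 13 genes of modulated smooth muscle, Lgals3 and Klf4 were higher and Ly6a, Mmp3 and Cd34 lower. Of 8 chondro-osteogenic genes, Sox5 was higher and Cytl1, Enpp1 and Scx were lower; of 8 BMP antagonists Fst was lower, and of the 6 relatives Sparc and Smoc2. Of 16 BMP ligand and receptor genes, Bmp2 was higher and Bmp4 and Bmpr1b were lower, and Hoxb5 was lower among 10 Hox genes. Cox4i2, Ndufa4l2 and Ckb were higher among 23 genes of glycolysis and oxidative phosphorylation. Among the signalling lists the changes were single genes: Jag1 joined the higher Notch genes, for 5 of 13, Atp2a3 the higher and Itpr2 the lower calcium handling genes, Abcc9 was lower among the potassium channels, and Ramp2 joined the lower vasoactive genes. The counts of the contractile, BMP target, clock and transcription factor lists were the same as over all B cells.

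**Figure D4:**
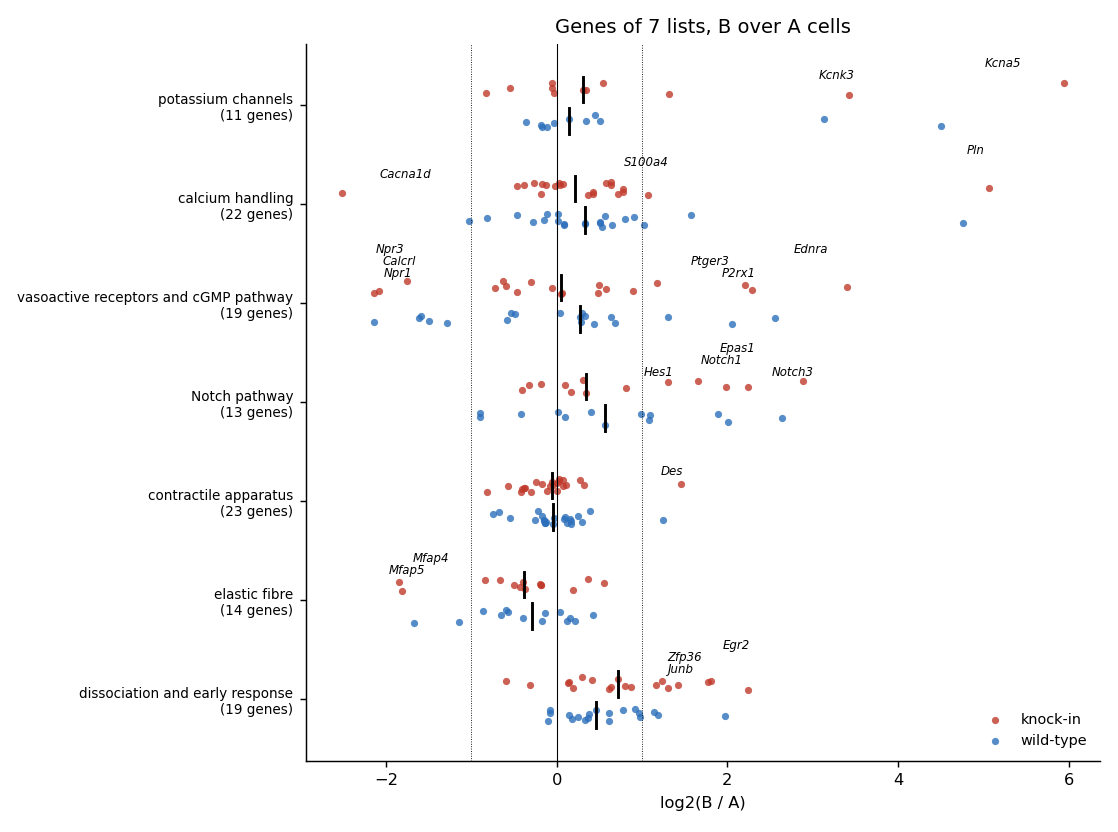
Log2 ratio of B over A cells for the tested genes of 7 lists, with knock-in points above wild-type points in each row; black ticks are medians, dotted lines mark 2-fold, and genes past 2-fold in both libraries are named. Single channels, receptors and Notch genes stand to the right, while contractile genes centre on medians of -0.06 and -0.04 and elastic fibre genes on -0.39 and -0.29.

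Of the other cell types, fibroblast markers were the most abundant in B cells. That list summed to 3861 CPM in knock-in and 6873 CPM in wild-type B cells, against 3454 and 4955 CPM in A cells and 31942 and 33577 CPM in non-mural cells. Col1a1 alone gave 1869 CPM of the sum in knock-in and 5056 CPM in wild-type B cells, and 1935 and 3258 CPM in A cells. Of its UMIs in wild-type B cells, 29.8% came from 1 cell. In B cells of the main cluster the list summed to 1862 CPM in the knock-in and 2077 CPM in the wild-type library. There 4 of 7 compared markers were at least 2-fold lower than in A cells, against 3.95% of all genes compared there. The list medians were -3.04 and -2.77, but A cells were not narrowed to 1 cluster in this way. Summed over the macrophage list they came to 133 CPM in knock-in and 33.6 CPM in wild-type B cells, against 112 and 69.5 CPM in A cells and 2672 and 2388 CPM in non-mural cells. The endothelial list came to 54.5 CPM in knock-in and 128 CPM in wild-type B cells, with Cdh5 at 0.576 and 4.67 CPM and Cldn5 at 0 UMIs in both. Mesothelial markers were at 0 UMIs in B cells of both libraries. The pericyte list came to 834 CPM in knock-in and 896 CPM in wild-type B cells, against 784 and 832 CPM in A cells and 1935 and 1904 CPM in C cells. Of 7 compared pericyte markers, Ndufa4l2 was at least 2-fold higher in B than in A cells of both libraries, against 1.68% of all genes compared. Its level in B cells was below that in non-mural cells. Among Schwann cell markers, S100b had 20.2 CPM in knock-in and 16.8 CPM in wild-type B cells, against 4.20 and 2.82 CPM in A cells, while Sox10 was at 0 UMIs in B cells of both. Fabp4, a fatty acid binding protein also found in capillaries and fat, had 326 CPM in knock-in and 356 CPM in wild-type B cells, against 156 and 141 CPM in A cells. Cycling markers summed to 12.4 CPM in knock-in and 17.7 CPM in wild-type B cells, against 35.3 and 156 CPM in A cells. Between genotypes, 4 of 4 compared macrophage markers were at least 2-fold higher and 2 of 2 compared endothelial markers at least 2-fold lower in knock-in B cells, against 2.57% and 1.64% of all genes compared. The list medians were 1.93 and -1.25. In the main cluster both sums had the other order, at 18.7 CPM in knock-in and 34.0 CPM in wild-type B cells for macrophage markers and 21.1 and 11.9 CPM for endothelial markers, and no marker of either list had enough UMIs to be compared. The part of these transcripts in the other results was not tested.

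B cells made up 9.16% of mural cells in the knock-in library (275 of 3002, exact binomial 8.15 to 10.2) and 13.9% in the wild-type library (54 of 388, 10.6 to 17.8). Of all kept cells they were 4.28% in the knock-in (3.80 to 4.81) and 1.46% in the wild-type library (1.10 to 1.90). The direction thus depends on the denominator, since mural cells were 3002 of 6419 kept cells in the knock-in and 388 of 3697 in the wild-type library. Within female cells, by Xist against Y-linked genes, B cells were 8.62% of knock-in and 11.2% of wild-type mural cells, and within male cells 9.88% and 13.8%. Dissection and digestion act on each library once, so a share cannot be told apart from how a library was prepared.

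Between the genotypes, some genes that set B cells apart from A cells were at similar levels and others were not. Crip1 had 9224 CPM in knock-in and 5956 CPM in wild-type B cells, and Ndufa4l2 had 59.4 and 109 CPM. A count over all such genes is not given. Pln had a log2 ratio of knock-in over wild-type B cells of 0.35 (0.03 to 0.70), Notch3 of 0.11 (-0.13 to 0.35), Ednra of 0.09 (-0.32 to 0.55) and Tbx2 of 0.05 (-0.46 to 0.62). Nrip2 was at 0.10 (-0.30 to 0.53), Igfbp5 higher at 0.50 (0.37 to 0.63) and Kcna5 lower at -0.70 (-1.19 to -0.19); these genes were chosen after their values were seen. Mgp itself stood at 10313 CPM in knock-in and 7598 CPM in wild-type B cells, a log2 ratio of 0.44. Across the 8133 genes with at least 50 UMIs over both libraries' B cells, 209 (2.57%) were at least 2-fold higher and 133 (1.64%) at least 2-fold lower in the knock-in, and the median gene had a log2 ratio of -0.04. In A cells, with more cells and 12628 genes, 394 (3.12%) were higher and 403 (3.19%) lower. With 1 library per genotype these counts have no replicate check.

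Clock genes were 4 of the 22 genes described between genotypes. Dbp, a clock output factor, had 303 CPM in knock-in and 36.4 CPM in wild-type B cells, a log2 ratio of 3.04 (2.60 to 3.56). Hlf had 67.4 CPM in knock-in and 10.3 CPM in wild-type B cells and Per3 37.7 and 6.54 CPM. Npas2, an activator partner in the clock, was lower, at 4.61 CPM in knock-in and 43.0 CPM in wild-type B cells. Barcodes with at most 50 UMIs had the same order. Dbp was at 316 CPM in those of the knock-in and 25.3 CPM in those of the wild-type library. Hlf was there at 46.9 and 11.4 CPM, Per3 at 43.5 and 8.77 CPM and Npas2 at 6.01 and 51.6 CPM. Of 16 clock genes 9 were at least 2-fold higher and 1 lower, against 2.57% and 1.64% of all genes compared, with a median of 1.17. A cells had log2 ratios of the same sign for Dbp, Hlf, Per3 and Npas2 (5.07, 2.56, 2.34 and -2.51). A genotype and an hour of collection cannot be told apart here.

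Other genes higher in knock-in B cells differed from A cells in size. Ptgs2, the inducible cyclooxygenase of prostaglandin synthesis, had 192 CPM in knock-in and 29.9 CPM in wild-type B cells, and 35.1 and 18.7 CPM in A cells. Rgs2, which shortens signalling by constrictor receptors, had 68.6 CPM in knock-in and 14.01 CPM in wild-type B cells, and 28.5 and 27.8 CPM in A cells. The difference between B and A cells in these ratios was not tested. Both genes were higher in knock-in B cells of either sex. Ptgs2 had 229.7 against 39.3 CPM in female and 179 against 18.5 CPM in male cells. Rgs2 had 75.6 against 12.1 CPM in female and 62.6 against 14.8 CPM in male cells. Female and male cells share the same libraries, so they are no replicates. The wild-type values rest on 13 female and 10 male UMIs of Ptgs2, and 4 and 8 UMIs of Rgs2. All 32 wild-type UMIs of Ptgs2 came from 4 B cells. Tcap, a titin-binding protein, had 220.4 CPM in knock-in and 29.9 CPM in wild-type B cells, and 477 and 27.5 CPM in A cells. Its log2 ratio was larger in A cells (4.11) than in B cells (2.86), a difference that was not tested. Barcodes with at most 50 UMIs held it at 278 CPM in the knock-in and 23.7 CPM in the wild-type library.

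Sema4a, a membrane semaphorin, had 91 UMIs in knock-in and 1 UMI in wild-type B cells, and its log2 ratio of 4.23 has an interval of 2.30 to 10.1. Enpp2, which makes lysophosphatidic acid, had 138 UMIs in knock-in and 4 UMIs in wild-type B cells. The chemokine genes Cxcl2 and Ccl2 rested on single cells: without the 1 knock-in B cell that held the most UMIs of each, the log2 ratio of Cxcl2 was 1.67 in place of 3.49 and that of Ccl2 2.10 in place of 3.07. In the B cells of the main cluster it was -0.84 for Cxcl2 and -0.05 for Ccl2. Over all B cells macrophage markers were higher in the same direction, with Lyz2 at 39.5 CPM in knock-in and 11.2 CPM in wild-type B cells; their part in the chemokine values was not tested.

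Of the 12 named genes lower in knock-in B cells, several rested on 1 wild-type cell or changed sign in other sets of cells. Cthrc1, a secreted collagen triple helix protein, had 4.90 CPM in knock-in and 48.6 CPM in wild-type B cells, and its log2 ratio was -2.86 without the top wild-type cell and -2.49 in the main cluster. Barcodes with at most 50 UMIs held Cthrc1 at 60.1 CPM in the knock-in and 274 CPM in the wild-type library, above B cells of either. The part of such free RNA in its ratio was not tested. Col1a1, the alpha 1 chain of type I collagen, had 1869 CPM in knock-in and 5056 CPM in wild-type B cells, a log2 ratio of -1.44 (-1.49 to -1.38). Without 1 wild-type cell it was -0.99, and in the main cluster -0.29, with 1103 CPM in knock-in and 1344 CPM in wild-type B cells. In cells of 8000 to 20000 UMIs it was 0.16. Barcodes with at most 50 UMIs held Col1a1 at 6549 CPM in the knock-in and 12472 CPM in the wild-type library. Scx, a tendon transcription factor gene, had a log2 ratio of -3.39, which was -1.98 without 1 wild-type cell and 0.52 without cells with 2 or more UMIs of endothelial, macrophage or Schwann markers. This last setting kept 136 of 275 knock-in and only 14 of 54 wild-type B cells, so sign changes under it rest on few wild-type cells. Enpp3, Fmod, Il17b, Sfrp1 and Ly6e each drew between 51.1% and 86.4% of their wild-type UMIs from 1 cell, and without it their log2 ratios lay between -1.54 and -0.34. Enpp3 was at 1.96 and Fmod at 0.38 in the main cluster, Il17b at 0.76 without cells with markers of other types, and Ly6e at 0.28 without cells with endothelial or macrophage markers. Sfrp1, a secreted Wnt antagonist, had a log2 ratio of -3.31 in A cells. Leo1 had a log2 ratio of -2.22. Gxylt2 had -1.64 over all B cells, 2.92 in the main cluster and 0.17 without cells with markers of other types.

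By list, over all B cells, the counts below stand against 2.57% higher and 1.64% lower of all genes compared. Of 14 elastic fibre genes, 4 (Lox, Mfap4, Mfap2 and Fbln1) were at least 2-fold lower and 0 higher in knock-in B cells, with a median of -0.64 against -0.04 for all genes. Eln had a log2 ratio of -0.995 in B cells and -1.19 in A cells. In the main cluster, where 233 (3.45%) of 6750 genes were higher and 88 (1.3%) lower, 13 of the list could be compared: 0 passed 2-fold on the lower side, Fbln2 passed on the higher side (2.21, 0.59 to 5.61), and the median was -0.36. There Eln had a log2 ratio of -0.79 (-0.84 to -0.75). Of 13 interstitial collagens 3 were lower (Col1a1, Col1a2 and Col14a1), and in the main cluster 0. Of 13 Notch pathway genes Hes1 and Nrarp were higher and 0 lower, and Hes1 had a log2 ratio of 1.18 (0.92 to 1.46) in B and 0.96 (0.80 to 1.13) in A cells. In the main cluster Hes1 was at 0.93 (0.63 to 1.26). Nrarp, a feedback inhibitor of Notch, had a wide interval in B cells, 0.05 to 2.58. Of the 23 contractile genes none passed 2-fold in either direction, with a median of 0.12. Of 9 BMP target genes tested none passed, and Id1 and Id3 had log2 ratios of -0.04 and 0.22.

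**Figure D5:**
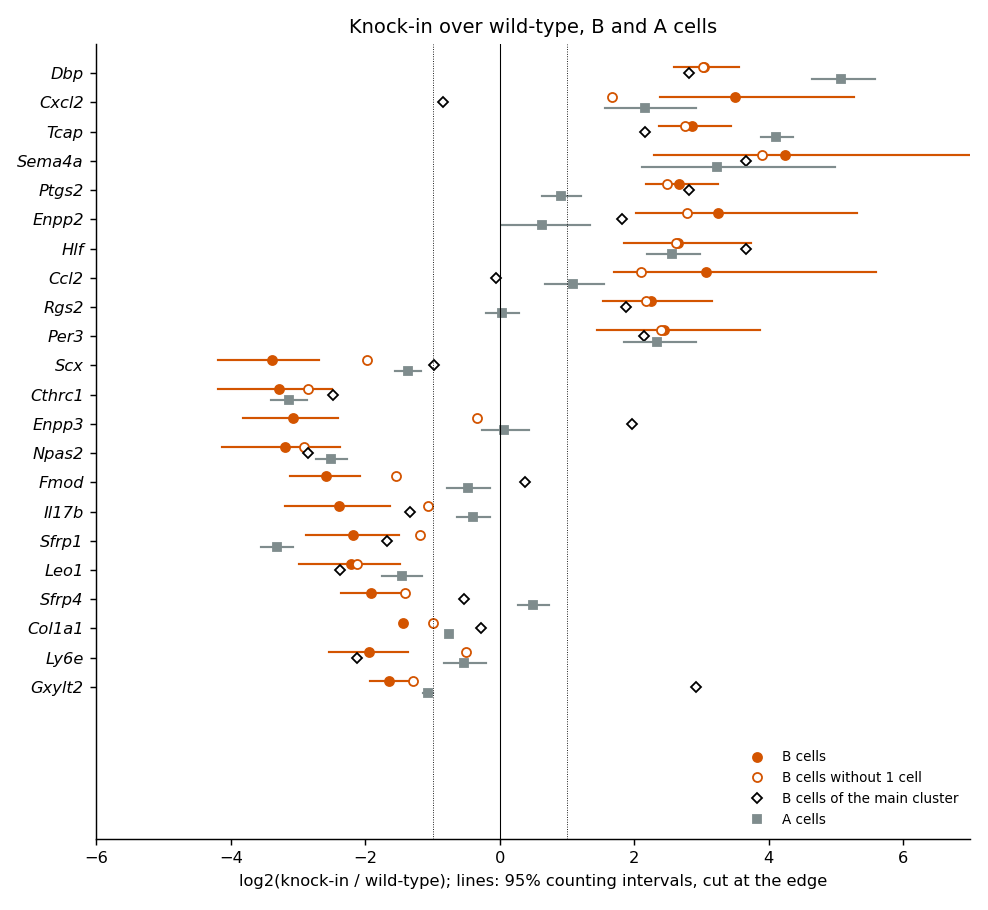
Log2 ratio of knock-in over wild-type for 22 named genes in B cells (filled circles, with 95% counting intervals), in B cells without the 1 cell with the most UMIs of the gene (open circles), in B cells of the main cluster (diamonds) and in A cells (squares). Clock genes, Ptgs2 and Rgs2 keep their side in B cells, while Cxcl2, Ccl2, Enpp3, Fmod and Gxylt2 cross 0 in the main cluster.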

How the data were processed

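The authors deposited unnormalized UMI counts of every gene in every barcode. Cell Ranger 7.1.0 made them, according to the submitters' processing notes; its genome build is not given in the sources used here. There is 1 library per genotype, so no replicate error can be had. Kept barcodes had 1000 UMIs and 500 genes or more, with mitochondrial genes at 10% or less, and cells were classed by the count rule without removing doublets; removing those that scrublet scores highest, 0.8% per 1000 cells, was an alternative. Counts were summed per class and library and divided by the class total (CPM). Log2 ratios add 0.5 to each count, and intervals are exact (Clopper-Pearson for shares, conditional binomial for ratios, 95%). They cover counting error only, and their coverage was checked on simulated data. A gene was compared for a 2-fold difference with at least 50 UMIs over both classes in each library, or over both libraries for genotypes. Named genes were those of at least 50 CPM (20 CPM for genotypes) ranked by the counting bound nearest 0: 15 higher and 10 lower in B cells, and 12 in each direction between genotypes. The rule's genes, unnamed gene models, and genes of ribosomes, mitochondria, hemoglobins, immunoglobulins and sex were not eligible. A few named or listed genes are not reported here, which leaves 14 higher in B cells and 10 higher in the knock-in. Mural cells were clustered without the rule's genes, with 2000 variable genes, 30 components, 15 neighbours and Leiden resolutions of 0.5 and 1.0. The rule, the members and the gene lists were chosen with earlier results of these data known. Promoters were matched by symbol to RefSeq, with windows for 10 of the 14 reported higher genes and 3 of the 4 B genes. Python 3.11.15, numpy 2.4.6, scipy 1.17.1, pandas 2.3.3, scanpy 1.11.5, igraph 0.11.9 and matplotlib 3.10.9 were used.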

Additional observations from a re-analysis of the deposited data

Results flagged for a closer look

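Sfrp4, a secreted Wnt antagonist, pointed in opposite directions in B and A cells. Its log2 ratio of knock-in over wild-type was -1.91 in B cells and 0.50 in A cells, and this difference was not tested. It had 79 UMIs in knock-in and 92 UMIs in wild-type B cells. Without the 1 wild-type B cell with the most UMIs of it the B-cell value was -1.42, and in the main cluster -0.54.

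Thbs1 also had opposite signs, with a log2 ratio of knock-in over wild-type of 0.35 in B cells and -2.88 in A cells; this difference was not tested either. The A cells had 3.55 CPM in the knock-in and 26.1 CPM in the wild-type library.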

How the results depend on the processing

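No paired analysis was possible because each genotype is 1 library. The share of B cells among mural cells was 4.76 points lower in the knock-in library (-4.76), and -8.76 points without cells with 2 or more UMIs of endothelial, macrophage or Schwann markers. The difference among kept cells, 2.82 points, was 1.16 without these cells and 3.66 in female cells. Leaving out cells with these markers kept 1037 of 3002 mural and 1631 of 6419 kept cells in the knock-in library. In the wild-type library it kept 64 of 388 mural and 195 of 3697 kept cells, with 14 B cells. The count of genes higher in B than in A cells was 154, and it was 276 and 55 at count minimums of 20 and 200, 37 after thinning to 3000 UMIs, 92 in female and 90 in male cells, and 61 without cells with other markers. The count of lower genes was 132, and it was 65 at a minimum of 200, 47 after thinning, 60 without cells with other markers, 216 where the B sum was at least 2 times the others, and 351 in the main cluster. Between genotypes the higher count was 209, and it was 449 and 59 at minimums of 20 and 200 and 99 after thinning. The lower count was 133, and it was 331 and 26 at those minimums, 55 after thinning, 88 in male cells and 88 in the main cluster. Higher minimums leave fewer genes compared and thinning fewer UMIs; otherwise the cause was not tested. The named genes were picked from these same cells for ratios far from 0, so a kept sign is a description. Of 864 B over A values of named genes, 231 left their counting interval without changing sign, and 4 were under 2-fold. Of 396 between genotypes, 84 left their interval in this way and 38 were under 2-fold. None of the 864 changed sign, and 20 of the 396 did. Without cells with other markers these were Cxcl2 (-0.13), Ccl2 (-1.06), Scx (0.52), Fmod (0.97), Il17b (0.76) and Gxylt2 (0.17). In the main cluster they were Cxcl2 (-0.84), Ccl2 (-0.053), Enpp3 (1.96), Fmod (0.38) and Gxylt2 (2.92). In cells of 8000 to 20000 UMIs they were Fmod (3.64), Sfrp4 (0.27) and Col1a1 (0.16). Without cells with endothelial or macrophage markers they were Ccl2 (-0.54) and Ly6e (0.28). Single cases were Cxcl2 without doublets (-0.49), Ccl2 in female cells (-0.29), and Ly6e in male cells (1.02) and at a mural threshold of 100 per 10000 (0.30). The main cluster, the exclusion of endothelial and macrophage markers alone, shared barcodes and single cells were chosen as alternatives after seeing the data.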
